A study of Homo sapiens with 2 samples.

Results

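The zinc finger genes of chromosome 19 were taken as every protein-coding gene of that chromosome in GENCODE 44 whose symbol is ZNF followed by a number. They came to 240 genes of the 1432 protein-coding genes of the chromosome that have a coding transcript. They were set beside 1176 other protein-coding genes of chromosome 19, leaving out 16 whose coding exons overlap those of a ZNF gene. The data were nucleosome positions from MNase-seq, in which micrococcal nuclease cuts the DNA between nucleosomes and the protected fragments are sequenced. The cells were ARPE-19, an established human line of retinal pigment epithelium, in interphase under normal culture, with no treatment or altered allele named in the labels. Digestion of the lysed cells took 5 min at 37 °C, and DNA near 150 bp was recovered from a gel. There was 1 group of 2 samples, batch 1 and batch 2, and 1 deposited list of positions in which the batches are not told apart. The file holds no measure of RNA, so the identity of the cells could not be checked against markers.

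C2H2 zinc finger proteins read DNA with a string of finger modules, each folded around a zinc ion held by a pair of cysteines and a pair of histidines, and joined to the next by a short conserved linker. Many of those on chromosome 19 also carry a KRAB domain near the start of the protein, which recruits the corepressor TRIM28 and the histone methyltransferase SETDB1 to the sites the fingers bind, often in transposable elements. The genes arose by repeated duplication and stand in clusters. In the typical gene a short exon codes for the KRAB A box, and the whole finger array is coded by the last coding exon, so that a near-identical unit of sequence is repeated many times in a row.

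The annotation matched this plan. Of the 240 genes, 234 had at least 3 matches to the finger pattern (C-x(2,4)-C-x(12)-H-x(3,5)-H in the translated sequence) in the last coding exon. The other 6 were ZNF414, ZNF428, ZNF507, ZNF536, ZNF541 and ZNF653. The median gene had 12 fingers (quartiles 9 and 15, highest 36) and 4 exons. Its last coding exon held 1523 bp of coding sequence, against 162 bp in the other genes of the chromosome. The KRAB A box core (F-x-D-V-x(3)-F) was found in 178 genes and not in 62. Only this pattern was searched, and the 62 were not checked for KRAB domains that depart from it. A CpG island covered the start of 123 genes, where only islands above 500 bp were counted.

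The whole list held 2634347 rows, each a single base, with no height or score. Chromosome 19 carried 50893 distinct positions, or 0.871 per kb of determined sequence, which placed it 14th of the 23 chromosomes counted. All values below are positions per kb of sequence, with exact 95% Poisson intervals in brackets, and ratios have exact conditional binomial intervals. The intervals cover counting error only. There were no replicates, the number of reads is unknown, and no test between batches was possible. Beside many of the raw values stands the ratio of observed positions to those expected from GC content. For this, each base was given the genome-wide density of its GC class. Chromosome 19 as a whole stood at 0.664 of this expectation, so its parts are to be read against that level.

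Inside the finger arrays the positions kept a preferred place on the repeat. Of the 2975 fingers, 2491 were followed by the next finger at exactly 84 bp, and these held 76 positions in 60 genes. Of the 76, 51 (67.1%, Wilson 95% interval 55.9 to 76.6%) lay in the 21 bp from 7 bp before to 14 bp after the first base of the codon for the first cysteine, a stretch that makes up 25% of the repeat. Those 51 positions came from 40 genes. The 35 bp that code for most of the helix and the histidines, 28 to 63 bp after the same base, held 9 positions (11.8%, 6.36 to 21%). In density this was 0.975 per kb near the first cysteine and 0.103 per kb over the helix. The 5 genes with the most positions in the last coding exon had 3 each. For each gene the repeat is shown around its first position, along the gene, in a finger followed by the next at 84 bp. Positions outside such fingers were passed over. Each sequence is 84 bases of hg38 on the coding strand with the position at base 43, and the capitals mark the codon of the first cysteine.
ZNF135, from finger 2 into the next, chr19:58067255-58067338, plus strand: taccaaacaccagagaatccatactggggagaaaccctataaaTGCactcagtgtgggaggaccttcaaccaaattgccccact
ZNF256, finger 2, chr19:57942046-57942129, minus strand: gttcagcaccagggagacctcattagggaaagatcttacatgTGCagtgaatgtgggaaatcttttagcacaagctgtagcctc
ZNF30, finger 11, chr19:34944296-34944379, plus strand: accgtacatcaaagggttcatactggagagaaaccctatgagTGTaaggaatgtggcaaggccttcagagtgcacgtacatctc
ZNF799, finger 5, chr19:12391413-12391496, minus strand: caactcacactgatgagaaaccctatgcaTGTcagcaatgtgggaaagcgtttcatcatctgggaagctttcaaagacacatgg
ZNF844, finger 4, chr19:12075873-12075956, plus strand: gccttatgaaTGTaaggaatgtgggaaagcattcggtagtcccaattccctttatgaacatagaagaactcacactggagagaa

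In ZNF256 and ZNF30 the position was the first base of the capital codon itself, and in ZNF135 it was the base before it. In ZNF799 it lay 13 bases after that first base. The position of ZNF844 lay 32 bases after it, in the part of the repeat where positions were rare. ZNF135 held its other positions 4 bases after the first cysteine base of finger 7 and at that base in finger 14. The remaining ones of ZNF256 lay 83 bases after the first cysteine base of finger 14 and 73 bases after that of finger 12. Those of ZNF30 lay 8 bases after that of finger 13 and 109 bases after that of finger 1, which has no next finger at 84 bp. ZNF799 had a position 1 base after that of finger 12 and another outside the array. The other positions of ZNF844 lay outside its array. These genes code for DNA-binding proteins of the same plan, and of the 5 only ZNF799 lacked the KRAB match.

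The share in these 21 bp was also computed in parts of the same 76 positions, as a description only and with no test between the parts. On the plus strand 24 of 36 positions (66.7%) lay in the 21 bp, and on the minus strand 27 of 40 (67.5%). Among genes with the KRAB match the share was 67.7%, and among those without it 63.6% (7 of 11 positions). Before 30 Mb, the share was 79.2% (19 of 24), and after it 61.5% (32 of 52). The GC content of the 7-bp bins along the repeat ranged from 27.2 to 58.8%, and the 3 bins of the 21 bp had 27.2, 44.1 and 46.9%. The share of bases with a unique 100-mer in the reference was between 98 and 99% in every bin. The part of base composition in this pattern was not tested.

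The 21 bp were chosen on the chromosome 19 genes after their positions had been seen, so the share there is a description. The finger genes of other chromosomes took no part in that choice. In 277 such genes, 1807 fingers at 84 bp spacing held 82 positions, of which 45 (54.9%, 44.1 to 65.2%) lay in the same 21 bp and 19 (23.2%, 15.4 to 33.4%) in the 35 bp over the helix. The interval of the share in the 21 bp lay above the 25% that the stretch takes up. In the other finger genes of chromosome 19, 4 of 10 positions (40.0%, 16.8 to 68.7%) lay in the 21 bp, an interval that includes 25%, and 3 over the helix. The intervals of the chromosome 19 genes and of the others overlapped, and the difference between them was not tested. Among neighbouring positions of the same array there were 22 pairs, 37 to 1032 bp apart (median 414 bp). Of these, 14 stood within 14 bp of a multiple of 84 bp, where 34.5% of whole-number distances lie. Since both follow from the same positions, the distances add no separate evidence.

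**Figure D1:**
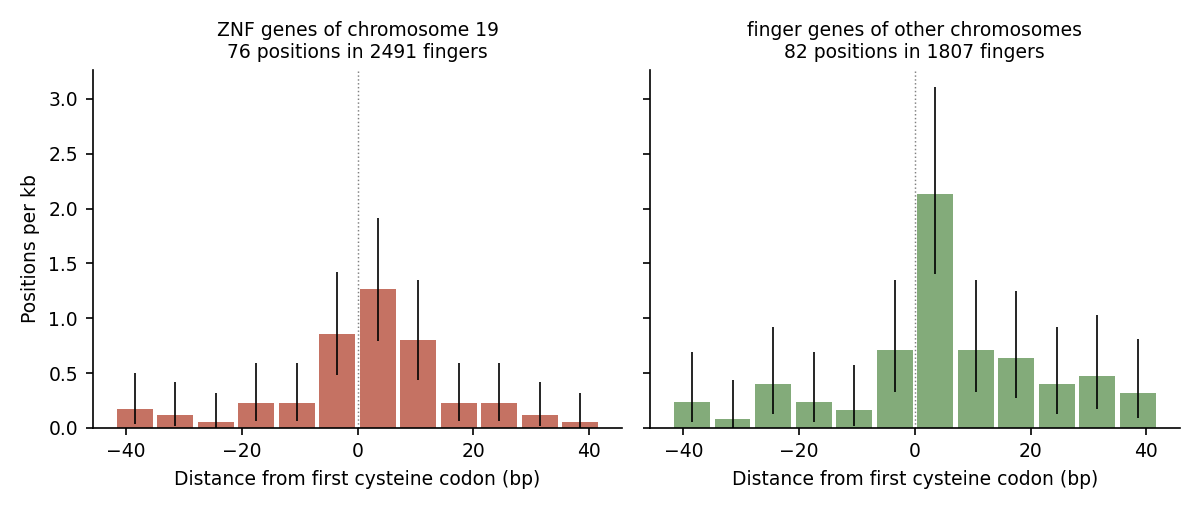
Positions per kb (vertical axis) by distance in bp from the first base of the first cysteine codon (horizontal axis), in 7-bp bins over the 84-bp repeat, for ZNF genes of chromosome 19 (left, 76 positions) and finger genes of other chromosomes (right, 82 positions). Bars are densities and lines exact 95% Poisson intervals; in both panels the bin just after the first cysteine base is the highest.

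The last coding exon as a whole held few positions. Over 367.7 kb of its coding part the 240 genes had 124 positions, 0.337 per kb (0.281 to 0.402), or 0.36 of the GC expectation. Their own introns had 0.571 per kb, so the exon stood at 0.591 of the introns (0.489 to 0.709), and at 0.68 (0.563 to 0.815) after both were set against GC. Other genes of the chromosome also had fewer positions in the last coding exon than in introns. Their last coding exons of at least 500 bp, 213 in number, held 0.537 per kb (0.448 to 0.64), which was 0.584 of their introns and 0.759 against GC. The exons of the ZNF genes had no length limit here, and with that of 500 bp (233 genes) they held 0.339 per kb. The ratio between all ZNF genes and these other genes was 0.628 (0.486 to 0.811) raw. Against GC it was 0.777 (0.601 to 1.00), an interval that reached 1.00. The exons of the ZNF genes were 43.2% GC and those of the others 61.0%. Coding parts of at least 500 bp in both classes were also split by CpG island at the start. Among genes with an island the ZNF genes held 0.383 per kb and the others 0.335 per kb (0.236 to 0.461). Among genes without one the values were 0.295 (0.221 to 0.385) and 0.71 per kb (0.57 to 0.88). Against GC they were 0.379 and 0.329 with an island, and 0.342 and 0.553 without. The lower ZNF density thus appeared only among genes without an island.

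Gene by gene, 151 of the 240 had no position in the last coding exon, 59 had 1, 25 had 2 and 5 had 3. Limited to coding parts of at least 500 bp, 144 of 233 ZNF genes (61.8%) had none, against 64.8% of the others and 63.2% of all genes counted, so the share was near the background. A density at or below 0.5 of their own introns was found in 61.9% of ZNF genes, where the background was 64.3%. At the other end, 30 of 223 ZNF genes (13.5%) had at least 2 times the density of their introns, beside 8.84% of the others and a background of 11.6%. With so few positions per exon, a count of 0 in 1 gene carries little information.

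The genes with the most fingers were among those with none. ZNF208 (36 fingers, coding part of 3614 bp), ZNF729 (34 fingers, 3503 bp), ZNF91 (31 fingers, 3320 bp) and ZNF850 (29 fingers, 3035 bp) had 0 positions there. A count of 0 allows up to 0.83 per kb in ZNF208 and 0.988 per kb in ZNF850. ZNF91, a repressor of retrotransposons, had 10 positions in its introns (0.318 per kb), and ZNF208 had 16 (0.498 per kb). ZNF845, with 26 fingers, had 1 position in 2768 bp. Only part of these long exons was unique at read scale: 49.9% of bases had a unique 36-mer in ZNF208 and 61.7% in ZNF729. The other long exons with 0 positions, ZNF865 (3177 bp) and ZNF628 (3170 bp), were 100.0% and 95% unique by the same measure and 72.0% and 71.0% GC.

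Among coding parts of at least 1000 bp ZNF550 (2 positions in 1016 bp) had the highest density, 1.97 per kb, and ZNF30 (3 in 1613 bp) had 1.86 per kb. ZNF135 followed with 1.75, ZNF256 with 1.74 and ZNF799 with 1.73 per kb. ZNF135 was also dense in its introns, with 13 positions in 6083 bp (2.14 per kb), the highest intron value of any ZNF gene. ZNF799 went the other way, with 1 position in 7467 bp of intron (0.134 per kb). Among the 229 genes drawn in the plot of introns against last coding exons, 141 sat on the zero line, 66 lay above the diagonal and 21 below it without being at zero.

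**Figure D2:**
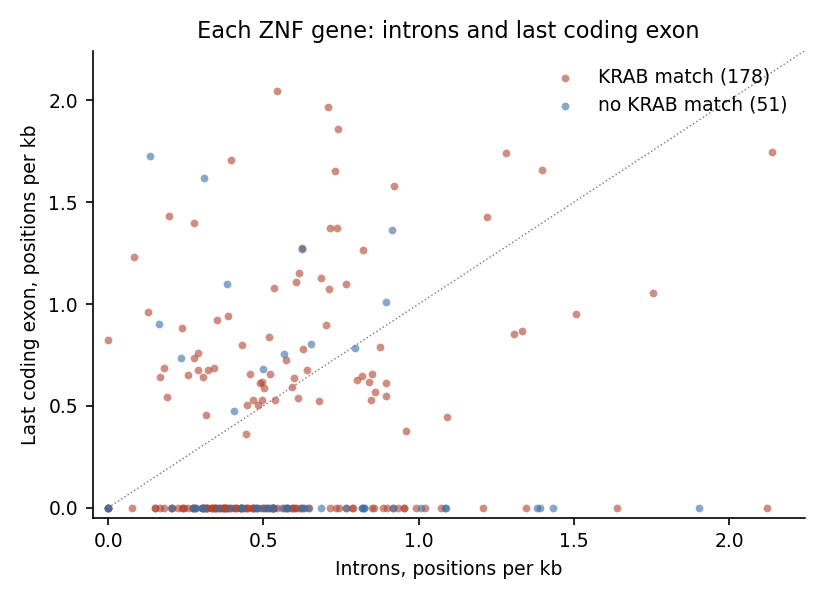
Each point is a ZNF gene of chromosome 19 (229 drawn: 178 with the KRAB match and 51 without), with positions per kb in its introns on the horizontal axis and in its last coding exon on the vertical axis. The dotted line marks equal densities; 141 genes lie at 0 on the vertical axis, and those above 0 are spread over the whole range of intron densities.

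Along the exon the density neither rose nor fell steadily. The 250 bp of intron before the last coding exon had 0.369 per kb and the first 250 bp of the exon 0.498 per kb. The next 250 bp had 0.24 per kb (0.128 to 0.41), and later bins up to 2000 bp lay between 0.233 and 0.499 per kb with overlapping intervals. The array itself held 90 positions, 0.34 per kb (0.274 to 0.418) and 0.346 of the GC expectation. In the 25 other genes of the chromosome with at least 3 fingers, arrays held 18 positions, 0.647 per kb (0.384 to 1.02) and 0.549. The array intervals overlapped, and the difference was not tested. Last coding exons of those other finger genes held 0.717 per kb at 500 bp or more and 0.471 per kb at 1000 bp or more. In the ZNF genes the part of the exon before the array held 32 positions, 0.37 per kb (0.253 to 0.522). In genes with the KRAB match, where that part links the KRAB domain to the fingers, it held 28 positions, 0.414 per kb. The sequence after the stop codon held 209 positions, 0.402 per kb (0.349 to 0.461) and 0.465 of the GC expectation, where other genes had 0.972 per kb and 0.674. Last coding exons of genes with the KRAB match had 0.37 per kb and those of the rest 0.24 per kb, a ratio of 1.56 with an interval from 0.961 to 2.66.

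Part of the array sequence is shared between genes, and reads from identical copies cannot be placed. In the arrays 85.6% of bases had a unique 36-mer and 98.2% a unique 100-mer, against 80.3% and 98.4% in the introns. In the 128 genes whose last coding exon was at least 95% unique by 36-mers, it held 0.392 per kb and the introns 0.576 per kb. In the 60 genes under 80% it held 0.178 per kb (0.105 to 0.281) and the introns 0.424 per kb. Against GC the exon and the introns stood at 0.368 and 0.518 of expectation in the first of these sets and at 0.262 and 0.435 in the second. Whether the sets differ, and the part of uniqueness in the low density, was not tested.

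The coding exons before the last stood out in the opposite direction. They held 84 positions, 1.29 per kb (1.03 to 1.59) and 0.97 of the GC expectation, so the last coding exon was at 0.262 of their density (0.197 to 0.35). Against the GC expectation of chromosome 19 alone these earlier exons stood at 1.46 (1.16 to 1.81). Without a CpG island at the start, such exons had 1.15 per kb in the ZNF genes (introns 0.551) and 1.15 per kb in the other genes (introns 1.04). With an island they had 1.42 per kb in the ZNF genes (introns 0.595) and 0.57 per kb in the other genes (introns 0.85). Inner coding exons of 80 to 200 bp had 1.60 per kb (1.25 to 2.01) in the ZNF genes, against 0.725 per kb in the introns 300 to 500 bp away, a ratio of 2.20 (1.59 to 3.04) and 1.82 (1.31 to 2.52) against GC. In the other genes of the chromosome the same exons had 0.851 per kb and the introns beside them 0.962 per kb, a ratio of 0.885 (0.801 to 0.977) and 0.926 (0.838 to 1.02) against GC. The intervals of the ZNF genes and of the others did not overlap, raw or against GC. The ratios of inner coding exons were not split by island.

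Among these exons was the one for the KRAB A box, the contact surface for TRIM28. It measured 127 bp in 159 of the 178 genes with the match. It held 33 positions, 1.45 per kb (0.999 to 2.04). This was 0.996 of its GC expectation (0.686 to 1.40), where the whole chromosome stood at 0.664. The introns 300 to 500 bp away had 0.615 per kb (0.428 to 0.855). The coding exon after the A box exon, where that was not the last, had 1.54 per kb (0.927 to 2.40). Of inner coding exons of 80 to 200 bp, 17.3% held a position in the ZNF genes and 10.2% in the other genes, with 10.7 percent over both. A position was found in 31 of the 178 A box exons (17.4%), at a median of base 63 of the exon (quartiles 52 and 95). The exons below, the first pair by symbol among those of 127 bp with a position, carry it at base 66 in ZNF14 and base 67 in ZNF208, and are shown in hg38 on the coding strand with the codons of the KRAB match in capitals.
ZNF14, chr19:19714361-19714487, minus strand: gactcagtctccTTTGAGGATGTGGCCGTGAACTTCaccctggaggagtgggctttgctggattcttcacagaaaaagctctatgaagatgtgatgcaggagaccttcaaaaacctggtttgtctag
ZNF208, chr19:21988783-21988909, minus strand: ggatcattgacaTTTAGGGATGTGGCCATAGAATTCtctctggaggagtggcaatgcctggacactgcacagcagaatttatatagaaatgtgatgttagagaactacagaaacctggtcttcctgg

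ZNF208 thus had a position on its A box exon and none in the finger exon of 3614 bp. Of the A box exons' bases 74.3% had a unique 36-mer and 94.5% a unique 100-mer, less than in the finger arrays.

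**Figure D3:**
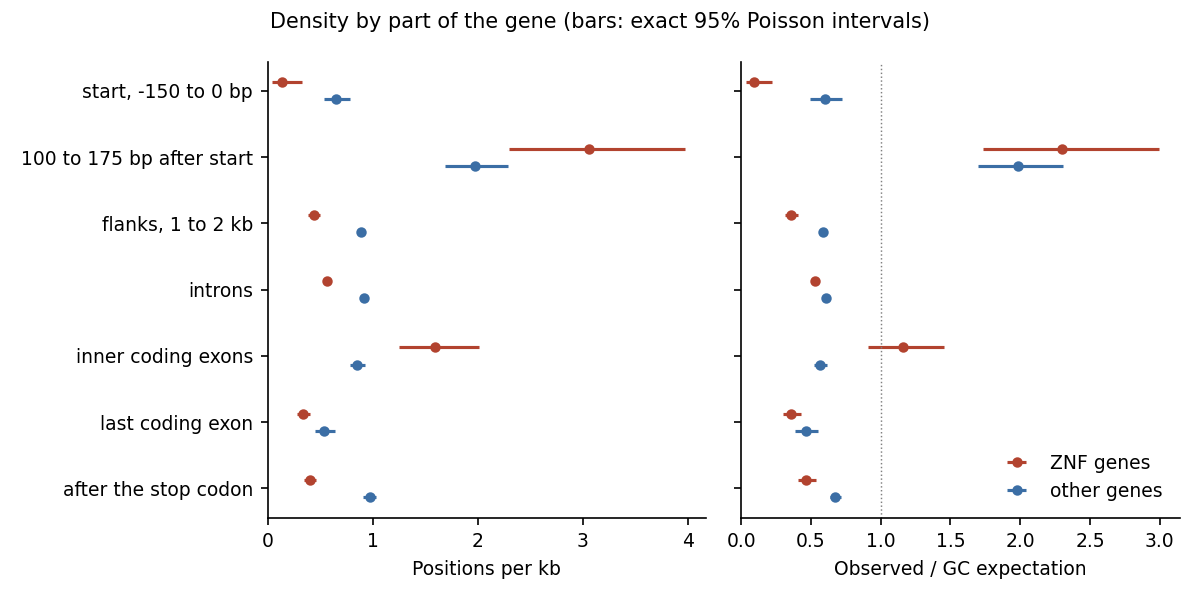
Positions per kb (left) and observed positions over the GC expectation (right) for 7 parts of the gene, in ZNF genes (red) and other genes of chromosome 19 (blue). Last coding exons of the other genes are those of at least 500 bp, and those of the ZNF genes have no length limit. Points are pooled densities and bars exact 95% Poisson intervals; in the ZNF genes the 150 bp before the start are the lowest part and the first nucleosome after it the highest, while inner coding exons lie above the introns only in the ZNF genes.

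Introns were the longest part counted. The ZNF genes had 2213 positions in 3878.7 kb of intron, 0.571 per kb (0.547 to 0.595), and the other genes 15935 positions, 0.92 per kb (0.906 to 0.934). The raw ratio was 0.62 (0.593 to 0.649). The introns of the ZNF genes were 42.4% GC and those of the others 50.7%, and against the GC expectation the ratio was 0.867 (0.829 to 0.907). The ZNF genes stood at 0.529 and the others at 0.61 of the genome-wide expectation, beside 0.664 for the whole chromosome. Against the GC expectation of chromosome 19 alone they stood at 0.785 and 0.922. Over single genes the ZNF median was 0.517 per kb (quartiles 0.343 and 0.766, 235 genes with introns counted), and the median of the other genes 0.793 per kb.

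Within the ZNF genes the introns differed by place. First introns had 0.544 per kb, middle introns 0.675 per kb and last introns, which lead to the finger exon, 0.498 per kb. The last stood at 0.738 of the middle ones (0.666 to 0.819) raw and 0.872 (0.786 to 0.967) against GC. Introns of genes with the KRAB match had 0.524 per kb and those of the rest 0.703 per kb, a ratio of 0.746 (0.682 to 0.817), or 0.828 (0.757 to 0.907) against GC. In the rest, ZNF536 alone gave 190 of the 706 positions and 179864 of the 1004460 bp. The ratio without this gene was not computed. The median distance to the next position was 741 bp in ZNF introns and 396 bp in the others. The commonest distance between 100 and 400 bp was 179 bp in ZNF introns and 188 bp in the others.

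The genes with the most intron sequence differed among themselves. ZNF536, a brain-expressed zinc finger gene whose last coding exon has only 5 bp of coding sequence, had 190 positions in 179864 bp (1.06 per kb). ZNF578 had 44 positions in 53615 bp (0.821 per kb) and 2 in its last coding exon. ZNF420 had 22 in 47287 bp (0.465 per kb) and 0 in the last coding exon. ZNF470, with 4058 bp of counted intron, and ZNF580, with 0 bp, had no position in counted introns, in the last coding exon or within 1000 bp of the start. They were named after their values were seen, and ZNF470 did have a position in its A box exon.

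At the start of the gene the ZNF genes showed a sharp gap. From 150 bp before the start site to the start itself there were 5 positions in 36 kb, 0.139 per kb (0.0451 to 0.324), or 0.094 of the GC expectation. The other genes had 114 positions there, 0.656 per kb (0.542 to 0.789), or 0.599 of expectation. The ratio was 0.211 (0.0674 to 0.508) raw and 0.157 (0.05 to 0.377) against GC. The 5 positions belonged to ZNF333, ZNF404, ZNF534, ZNF561 and ZNF576. Taking the stretch on to 50 bp after the start added only that of ZNF563, and gave 6 positions or 0.126 per kb, against 148 or 0.645 per kb in the other genes.

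ZNF genes with and without a CpG island at the start both had the gap. With an island they had 0.109 per kb (2 positions, 0.0132 to 0.394) and without one 0.17 per kb (3 positions, 0.035 to 0.496). In the other genes the values were 0.164 per kb with an island and 1.13 per kb (0.921 to 1.38) without. ZNF genes without an island were thus at 0.15 of other genes without one (0.0304 to 0.451), and at 0.129 against GC. Between genes with an island the ratio was 0.666, with a wide interval from 0.0735 to 2.90. The wider window from 200 bp before to 50 bp after the start also takes in part of a peak upstream and did not show the gap: 26 positions, 0.435 per kb, beside 0.44 per kb in the flanks 1000 to 2000 bp away. A position in that window was present in 26 of 240 ZNF genes (10.8%), beside 15.8% of the others and 15 percent of all genes counted.

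The gap was bordered on both sides. The bins from 250 to 200 bp and from 200 to 150 bp before the start held 21 and 20 positions, 1.76 and 1.67 per kb, and the bin from 100 to 150 bp after it 44 positions, 3.67 per kb (2.66 to 4.92). The bin from 200 to 250 bp after the start was low again at 0.167 per kb. The first nucleosome after the start, taken as the 75 bp from 100 bp on, had 55 positions, 3.06 per kb (2.30 to 3.98). This was 6.94 times the flanks (5.06 to 9.39) raw and 6.43 times (4.68 to 8.69) against GC. In other genes it had 172 positions, 1.97 per kb (1.69 to 2.29). This was 2.22 times their flanks (1.89 to 2.60) raw and 3.38 times (2.88 to 3.95) against GC, so the classes stood closer after GC. The flanks themselves differed, 0.44 against 0.886 per kb, or 0.358 against 0.587 of the GC expectation.

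Between the classes, the first nucleosome was 1.55 times as dense in ZNF genes (1.12 to 2.11) raw, and 1.16 times (0.84 to 1.58) against GC, an interval that included 1. Without the 37 genes from ZNF101 to ZNF254 the raw ratio was 1.40 (0.974 to 1.97), which also included 1. A position in this window was found in 55 of 240 ZNF genes (22.9%, 18.1 to 28.6%), against 14.1% of the others and a background of 15.6 percent. The genes with the most positions within 1000 bp of the start were ZNF615 with 8 and ZNF556 with 5, followed by 8 genes with 4 each, of which ZNF17, ZNF430 and ZNF563 come first by symbol. The median ZNF gene had 1.

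**Figure D4:**
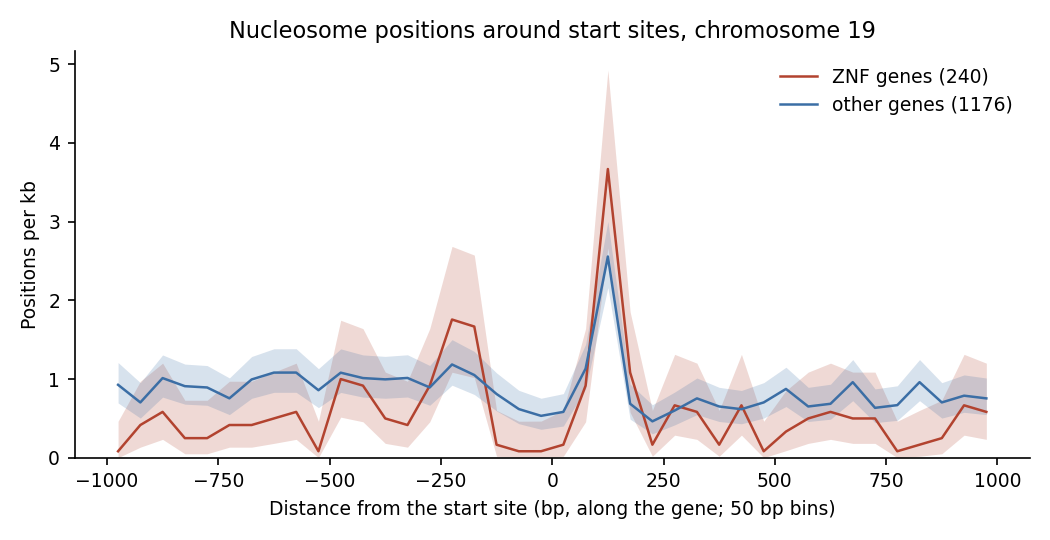
Positions per kb (vertical axis) by distance from the start site along the gene in bp (horizontal axis, 50-bp bins), for 240 ZNF genes (red) and 1176 other genes of chromosome 19 (blue). Lines are pooled densities and shading exact 95% Poisson intervals; the ZNF genes lie near 0 from 150 bp before to 50 bp after the start, between a lower peak upstream and one of 3.67 per kb downstream.

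A position 250 to 150 bp upstream was present in 40 ZNF genes (16.7%, 12.5 to 21.9%), beside 10.6% of the other genes (8.99 to 12.5%) and 11.7 percent of all. In 4 ZNF genes (1.67%), ZNF100, ZNF134, ZNF211 and ZNF607, this and a first nucleosome were both present with none between, beside 2.13% of the other genes and 2.05 percent of all. The promoters of ZNF100 and ZNF134 are shown because their positions frame the gap, at 188 bp before and 134 bp after the start in ZNF100 and at 217 bp before and 124 bp after in ZNF134. They run from 250 bp before the start, 5′ to 3′ along the gene, as given by RefSeq on GRCh38.p14, and the capitals mark a GC box, a CCAAT box or an ETS core on either strand, spelled out in the next paragraph.
ZNF100, chr19:21767530-21767829, minus strand: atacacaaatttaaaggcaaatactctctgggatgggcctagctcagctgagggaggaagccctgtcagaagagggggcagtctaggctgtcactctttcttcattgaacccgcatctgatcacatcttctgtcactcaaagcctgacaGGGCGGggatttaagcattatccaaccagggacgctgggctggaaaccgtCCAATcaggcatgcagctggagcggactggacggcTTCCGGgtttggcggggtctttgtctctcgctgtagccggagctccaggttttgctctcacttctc
ZNF134, chr19:57613992-57614291, plus strand: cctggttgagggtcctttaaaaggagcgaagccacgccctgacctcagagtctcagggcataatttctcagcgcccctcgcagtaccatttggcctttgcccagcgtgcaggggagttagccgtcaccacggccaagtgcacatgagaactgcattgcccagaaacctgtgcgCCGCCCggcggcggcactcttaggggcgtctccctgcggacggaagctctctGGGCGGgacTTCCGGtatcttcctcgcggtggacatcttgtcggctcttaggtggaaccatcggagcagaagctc

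Of the 240 genes, 210 were matched by symbol to a RefSeq promoter of 300 bases. The GC box (GGGCGG, either strand) occurred in 69.5% of these, against 44.6% of all 27305 promoters. The ETS core (CCGGAA) occurred in 54.8%, against 17.6%, and CCAAT in 52.9%, against 35.7%. TATAAA was found in 4 promoters (1.90%), where 12% of all promoters had it, and the E box CACGTG in 3.81%, against 7.43%. These are matches of letters, searched on both strands, and no binding was measured. The set of all promoters was not limited to chromosome 19 and not matched in GC content. The part of base composition in these shares was not tested.

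Along the chromosome the clusters were compared in their introns and last coding exons. Grouping genes whose starts lay under 1 Mb apart gave 16 groups, of which 9 had at least 5 genes and held 231 of the 240. The 37 genes from ZNF101 to ZNF254 (chr19:19668796-24129968), 33 of them with the KRAB match, had 3 positions in 61.8 kb of last coding exon, 0.0485 per kb (0.01 to 0.142) and 0.0999 of the GC expectation. The 3 belonged to ZNF682, ZNF708 and ZNF726, and all lay outside the finger array. Its introns were the lowest of the 9 in raw density at 0.413 per kb, but not against GC, where they stood at 0.483 and those from ZNF175 to ZNF331 at 0.445. Its first nucleosomes stood at 4.68 per kb (13 positions). Only 1 of the 37 starts lay in a CpG island.

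The 25 genes from ZNF653 to ZNF791 (chr19:11483427-12640098), by contrast, had 28 positions in 36.3 kb, 0.772 per kb (0.513 to 1.12) and 0.854 of the GC expectation, with introns at 0.581 per kb. ZNF799 and ZNF844 belong to this cluster. The 39 genes from ZNF175 to ZNF331 had 11 positions (0.163 per kb) and the largest cluster, the 57 genes from ZNF628 to ZNF446, had 33 (0.39 per kb). The highest raw value, 0.926 per kb in the 5 genes from ZNF554 to ZNF77, rested on 6 positions (0.34 to 2.02) and was 0.62 of the GC expectation. Between this cluster and the ZNF101 to ZNF254 cluster, the highest and the lowest by raw density and chosen as such, the log2 ratio was 4.25 (2.03 to 6.88) raw and 2.63 (0.41 to 5.26) against GC. By observed over expected the highest was instead the ZNF653 to ZNF791 cluster, at a log2 ratio of 3.10 (1.40 to 5.46) to the lowest. In the ZNF101 to ZNF254 cluster 69.3% of the bases of last coding exons had a unique 36-mer and 96.1% a unique 100-mer, and in the ZNF653 to ZNF791 cluster 86.1% and 98.7%; the part of uniqueness in the difference was not tested.

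**Figure D5:**
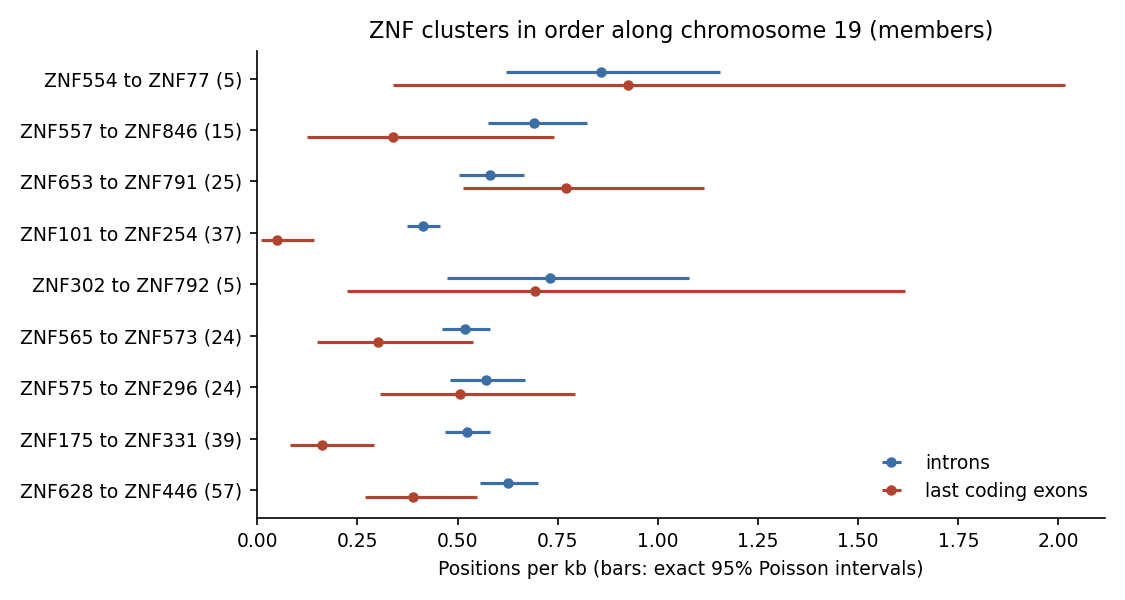
Positions per kb (horizontal axis) in the introns (blue) and last coding exons (red) of the 9 clusters with at least 5 ZNF genes, in order along chromosome 19, with the number of genes in brackets. Points are pooled densities and bars exact 95% Poisson intervals; introns range from 0.413 to 0.857 per kb, while last coding exons range from 0.0485 to 0.926 per kb.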

How the data were processed

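The authors deposited 1 list of nucleosome positions for MNase-seq of interphase ARPE-19 cells (2 samples). Each value in it is a genome position of 1 bp with no height. Bowtie2 and hg38 (GRCh38) are named per the submitters' processing notes. The caller, fragment filter, threshold and any pooling of the batches are not given in the sources used here.

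Members and lists were chosen with earlier results of these data known. Genes and exons came from GENCODE 44, with 1 transcript per gene: MANE Select in 239 members and the canonical one in 1. Of 1476 protein-coding genes on chromosome 19, 1432 had a coding transcript, and the 6 symbols of ZNF, a number and a letter were added in an alternative. Introns excluded exons of any protein-coding transcript and 1000 bp around any protein-coding start. The GC expectation used the 200 bp around each base in classes of 2%. A k-mer was unique if it occurred once in the reference on both strands. Islands were segments above 500 bp, at least 55% GC and above 0.65 observed to expected CpG, from a score of 17 per CpG and -1 per other base. Named genes were those with the most fingers, the most positions or highest density in the last coding exon, the longest last coding exons with 0 positions (the last pair of classes among coding parts of at least 1000 bp), the most positions within 1000 bp of the start and the most intron sequence. A count of 0 was given the limit of 3 counts. No test was run, because 1 list has no replicates. Alternatives were the GC expectation, merging positions closer than 100 bp, unique sequence, other gene sets and other windows. The ratio calculation was tested on simulated counts. Python 3.11.15, numpy 2.4.6, pandas 2.3.3, scipy 1.17.1, numba 0.67.0 and matplotlib 3.10.9 were used.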

Additional observations from a re-analysis of the deposited data

Results flagged for a closer look

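The list also holds 5 rows on an alternate sequence of chromosome 19, which lie outside every count above. They were singled out because the number is above the 3 rows that a count of 0 would allow.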

How the results depend on the processing

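Of 56 alternative values for 7 results, 51 lay inside the interval of the main value, which was often wide. Another 5 lay outside it, and 0 were called reversed. A reversal could be called only where the main interval of a density ratio excluded 0, and not for the repeat or the clusters. As log2 ratios, the density from -200 to +50 bp against the flanks was -0.015, with an interval that included 0. It was positive in some alternatives, up to 0.27 without the largest cluster. It became -1.66 from -150 to 0 bp, a window that leaves out the upstream peak by construction. The ZNF intron ratio to other genes was -0.69. It became -0.21 with the GC expectation of all chromosomes, -0.23 with that of chromosome 19, -0.78 on bases with a unique 36-mer and -0.56 without the genes from ZNF101 to ZNF254, and the cause was not tested. The first nucleosome fell from 0.63 to 0.21 and 0.23 under the GC expectations and to 0.49 without ZNF101 to ZNF254, each with an interval that included 0. The last coding exon of ZNF genes against other genes went from -0.67 to -0.36 under both GC expectations, with intervals that reached 0. The share of positions in the fullest 21 bp of the repeat ranged from 63.2 to 67.2%. That stretch was picked anew in each alternative from the same positions or part of them, so the range is no separate evidence. With 14-bp bins, 72.4% lay in the fullest 28 bp, a longer stretch. Leaving out the genes from ZNF101 to ZNF254, the GC expectation for the clusters, using unique 36-mers for the repeat and leaving out the largest cluster for the repeat were chosen after seeing the data. No paired analysis was possible because the list does not tell the batches apart and there is 1 group. For the same reason no batch could be left out. The unknown read depth limits every count, and positions in near-identical copies may be missing.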

Other observations

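Of 15 genes whose products work with KRAB zinc fingers in repression, among them the corepressor TRIM28, the methyltransferase SETDB1, the heterochromatin proteins CBX1, CBX3 and CBX5, and the maintenance methylation genes DNMT1 and UHRF1, 14 had 0 positions from 200 bp before to 50 bp after the start. This is near the share over the genes of chromosome 19, of which 15 percent had a position there. The exception was SMARCAD1, a chromatin remodeller, with 1. A first nucleosome in the 75 bp from 100 bp after the start was listed for DNMT1 and SMARCAD1, 2 of the 15, beside 15.6 percent of the chromosome 19 genes. Within 2000 bp of the start these genes had between 0 and 4 positions (median 1), with 2 at TRIM28 and 4 at MPHOSPH8, a subunit of the HUSH complex. At this number of positions per gene no order between them can be read.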
